A study of Mus musculus with 2 samples.

Results

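Atp4a and Atp4b encode the catalytic and the glycosylated accessory subunit of the gastric proton pump, and Esrrg encodes estrogen-related receptor gamma, an orphan nuclear receptor. The 3 genes were found by symbol among the 32285 genes of each expression matrix. They had been selected because of their levels in these data, so those levels are described here and were not tested. Single-cell RNA was measured in pancreatic tumours of 6-week-old mice, with 1 library from EL1 mice and 1 from WTg mice. EL1 mice (strain label EL1-Luc/EL1-Tag, made on FVB/N) carried SV40 large T antigen and firefly luciferase, each driven by the elastase I promoter, which is active in pancreatic acinar cells. WTg mice (EL1-Luc/EL1-Tag x CAG-Mettl3) carried the same transgenes and, in addition, the Mettl3 reading frame under the ubiquitous CAG promoter, injected into eggs of C57BL/6 mice. Transgene and strain background therefore differed together and cannot be told apart, and the number of animals behind each library was not stated. Barcodes with at least 500 genes, at least 1000 unique molecular identifiers (UMIs, counted cDNA molecules) and at most 20% mitochondrial UMIs were taken as cells, which gave 1113 cells of EL1 and 905 of WTg. Levels are given as UMIs per 1000000 UMIs of the same cells (CPM) with exact Poisson intervals at 95%. With 1 library per group nothing measured the spread between animals, so no test between EL1 and WTg was possible, and every interval covers counting error only.

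The pump is assembled from both subunits in the parietal cell of the stomach, where it exchanges cytosolic protons for potassium and acidifies the lumen. It needs the accessory subunit to reach the membrane, potassium channels to recycle potassium and chloride transport to form hydrochloric acid. Estrogen-related receptors bind DNA without a known natural ligand, work with PGC-1 coactivators and switch on genes of mitochondrial energy metabolism. Estrogen-related receptor gamma is known for its part in the expression of parietal cell genes, the pump among them. The exocrine pancreas secretes digestive enzymes and bicarbonate, and the pump is not a gene of its normal acinar cells.

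On the GRCm38 genome (GENCODE M21), Atp4a (ENSMUSG00000005553) lies on chromosome 7 from 30712209 to 30725534 on the plus strand, with no other annotated gene in that interval. Atp4b (ENSMUSG00000031449) lies on chromosome 8 from 13386205 to 13396825 on the minus strand and overlaps Gm45410 on the opposite strand over 1093 bases. Esrrg (ENSMUSG00000026610) spans 606095 bases of chromosome 1, from 187608791 to 188214885 on the plus strand, with 4 overlapping annotated genes, 3 of them on the opposite strand. The RefSeq promoter table (GRCm38.p6, 300 bases around each annotated start) held 1 promoter of Atp4a and 4 of Esrrg. The 250 bases before the Atp4a start, and 30 bases before the first Esrrg start around the motif match found there, are shown because their genes were found in the same cells, and capitals mark that match:
Atp4a chr7:30711959-30712208, plus strand: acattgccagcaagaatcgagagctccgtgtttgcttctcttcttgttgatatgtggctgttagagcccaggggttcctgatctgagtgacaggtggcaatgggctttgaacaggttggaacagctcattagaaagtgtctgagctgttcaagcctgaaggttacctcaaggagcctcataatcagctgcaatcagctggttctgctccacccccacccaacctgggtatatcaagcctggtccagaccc
Esrrg chr1:187608975-187609004, plus strand: aaaactttgctaTTTATAgtctacgcccgg
Both strands of each promoter were searched for AAGGTCA, the core motif of estrogen-related receptors, for its longer form TNAAGGTCA, which contains it, for the GATA factor motifs AGATAA and TGATAA, and for TATAAA. The Atp4a promoter held none of these letters. Of the 4 Esrrg promoters, 1 held TATAAA on the reverse strand, 14 to 19 bases before the start, and none held the other motifs. Of 32851 promoters of the same length, 4.72% held AAGGTCA, 1.28% TNAAGGTCA, 11.2% AGATAA, 9.05% TGATAA and 13.6% TATAAA.

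Kept cells of EL1 held 37961287 UMIs, with a median of 26543 per cell, and those of WTg held 33007683, with a median of 34836. A count of 3 UMIs, used as the upper limit where a gene was at 0, came to 0.0790 CPM for EL1 and 0.0909 CPM for WTg. Mettl3, the gene on the transgene, had 15.1 CPM (EL1) and 66.7 CPM (WTg). The samples were labelled as pancreas and as epithelial cells. The 10 acinar marker genes summed to 87086 CPM for EL1 and 96469 CPM for WTg, while 100 cells of EL1 and 83 of WTg fell into clusters named for blood, immune or stromal cells. The libraries shared 15 barcodes. Of these, 14 were cells of EL1 with 127067 to 228500 UMIs that appeared in WTg with 500 to 880 UMIs, between 0.294% and 0.395% of the EL1 total, and were removed there by the filter. Of the 14 cells, 3 had both pump subunits. Without the shared barcodes the log2 ratios of WTg to EL1 given next were -5.12 for Atp4a, at most -9.40 for Atp4b against that limit and -1.56 for Esrrg, and 49 EL1 cells had both subunits.

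All 3 genes were higher in EL1 than in WTg over the kept cells. Atp4a had 1633 UMIs in 96 cells of EL1, or 43.0 CPM (41.0 to 45.2), with up to 168 UMIs in a cell. In WTg it had 41 UMIs in 34 cells, or 1.24 CPM (0.891 to 1.69), with at most 3 UMIs in a cell, and the log2 ratio of WTg to EL1 was -5.11 (-5.60 to -4.67). Atp4b had 2509 UMIs in 83 cells of EL1, or 66.1 CPM (63.5 to 68.7), with up to 207 UMIs in a cell. It had 0 UMIs in the kept cells of WTg, which at 3 counts allows up to 0.0909 CPM, so that the level in EL1 was at least 727-fold higher against that limit. The exact 95% interval of the ratio itself started at 591-fold. Esrrg had 1255 UMIs in 330 cells of EL1, or 33.1 CPM (31.3 to 34.9), and 368 UMIs in 248 cells of WTg, or 11.1 CPM (10.0 to 12.3). Its log2 ratio was -1.57 (-1.74 to -1.40), with up to 113 UMIs in a cell of EL1 and up to 6 in a cell of WTg. The 3 genes were therefore each at least 2-fold lower in WTg, as were 6.9% of the 16167 genes with at least 10 UMIs, but this contrast was used to select them.

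A few cells carried most of the UMIs in EL1. The 10 highest cells held 62.3% of the Atp4a UMIs, 49.5% of the Atp4b UMIs and 37.6% of the Esrrg UMIs. In WTg no cell stood out, since 29 of the 34 cells with Atp4a had 1 UMI of it and 219 of the 248 cells with Esrrg had 1 or 2. Shares of cells with a UMI depended on depth. Without thinning they were 8.63% in EL1 and 3.76% in WTg for Atp4a, 7.46% and 0% for Atp4b, and 29.6% and 27.4% for Esrrg. After each cell was thinned to 2000 UMIs, which left out 62 cells of EL1 and 69 of WTg, Atp4a was found in 2.66% (exact Clopper-Pearson interval 1.78 to 3.83) of EL1 cells and 0.120% (0.00303 to 0.665) of WTg cells. Atp4b was then found in 4.19% (3.06 to 5.58) and in 0 of 836 cells (up to 0.440%), and Esrrg in 4.47% (3.30 to 5.90) and 2.99% (1.94 to 4.38). These intervals cover counting error in cells of 1 library each, and the genes were selected by this contrast, so their overlap tests no difference. At 5000 UMIs, which left out 138 and 157 cells, the Esrrg shares were 10.3% (8.42 to 12.3) and 5.48% (3.96 to 7.36).

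The same EL1 cells carried both subunits and the receptor. Of the 1113 cells, 49 had UMIs of all 3 genes, and these 4.40% of cells held 95.8% of the Atp4a UMIs, 91.6% of the Atp4b UMIs and 63.7% of the Esrrg UMIs. A further 3 cells had both subunits without Esrrg, 19 had Atp4a with Esrrg, 19 had Atp4b with Esrrg, 25 had Atp4a alone and 12 had Atp4b alone. Esrrg without a pump subunit was found in 243 cells, and 743 cells had none of the genes. In WTg, 13 cells had Atp4a with Esrrg, 21 had Atp4a alone, 235 had Esrrg alone and 636 had none. Both subunits were in no WTg cell.

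**Figure D1:**
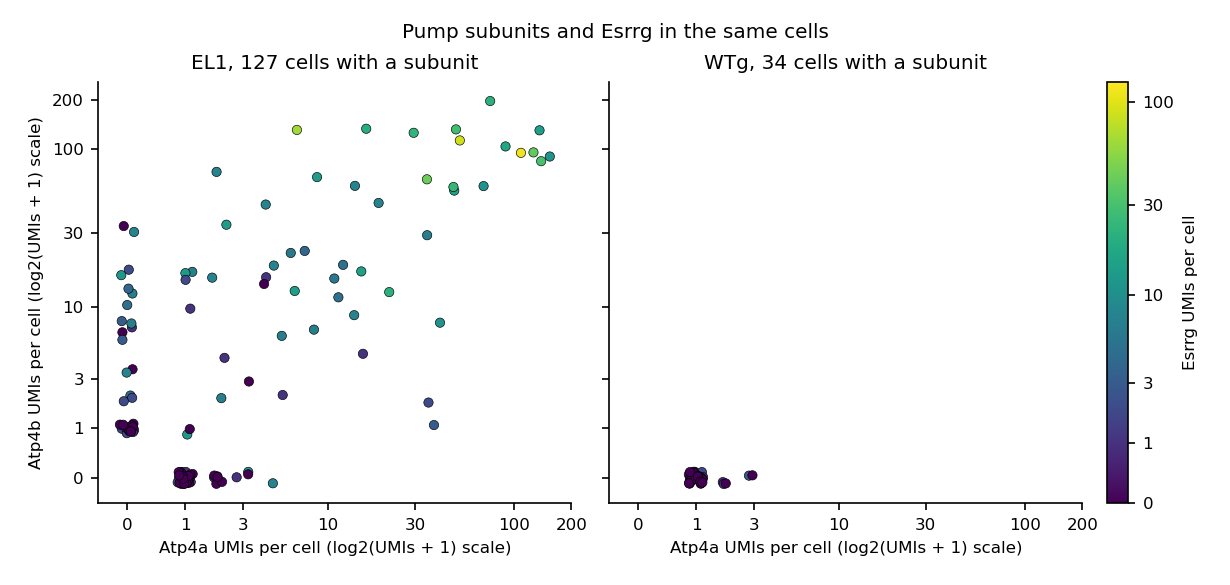
Each point is a cell with at least 1 UMI of a pump subunit, 127 cells of EL1 (left) and 34 of WTg (right), with Atp4a UMIs on the x axis, Atp4b UMIs on the y axis (both on a log2(UMIs + 1) scale, points jittered) and Esrrg UMIs in colour. Cells of EL1 with many UMIs of both subunits also had Esrrg, while the WTg cells lay at 0 Atp4b and at most 3 Atp4a UMIs.

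In the 52 EL1 cells with both subunits, Atp4a ranged from 1 to 168 UMIs with a median of 12.5, and Atp4b from 1 to 207 with a median of 19. Thinned to 2000 UMIs, 20 cells had both. Esrrg was found in 49 of the 52 (94.2%, 84.1 to 98.8), or in 35.0% (15.4 to 59.2) of the 20 after thinning, and unthinned it ranged from 0 to 113 UMIs with a median of 8. Its level in these cells was 310 CPM (288 to 332). In the 75 cells with 1 subunit it was 35.4 CPM (29.4 to 42.2), and in the 986 cells with neither it was 10.4 CPM (9.35 to 11.6). These intervals did not overlap. Of the 75 cells with 1 subunit, 20 lay in the pump-bearing cluster 10 described next with 91 of the 123 Esrrg UMIs, and the other 55 had 11.4 CPM (7.82 to 16.1), which overlapped with cells with neither. Mettl3 was at 16.7, 18.1 and 14.7 CPM in the same groups, with overlapping intervals. Cells with both subunits were deeper than cells with neither (median 37049 against 25531 UMIs) and had more mitochondrial UMIs (median 8.50% against 4.02%), and the part of depth and RNA quality in these shares was not tested. Of the EL1 cells without Atp4a, 3.05% (2.08 to 4.30) had Atp4b, against 54.2% (43.7 to 64.4) of the 96 cells with it, and at 3 or more UMIs of each gene the latter share was 84.4% (70.5 to 93.5) of 45 cells. Within the band of 10000 to under 30000 UMIs, 19 of 31 cells with Atp4a also had Atp4b and 20 had Esrrg (64.5%, 45.4 to 80.8), against 3.54% and 20.3% (16.6 to 24.4) of the 424 cells without Atp4a. Within the band of 30000 or more, these were 31 and 47 of 60 (Esrrg 78.3%, 65.8 to 87.9), against 3.04% and 39.5% (34.8 to 44.3) of 428 cells.

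The balance of the subunits varied between cells. Atp4b made up a median of 59.0% of the pump UMIs of a cell, with the middle of the 52 cells between 47.0% and 79.5% and extremes of 2.44% and 97.3%. Across the 1113 EL1 cells, log-scaled counts of Atp4a and Atp4b had a Pearson correlation of 0.75 (Spearman 0.58), Atp4b and Esrrg 0.70 (0.41), and Atp4a and Esrrg 0.60 (0.34). The cells share 1 library and differ in depth, and after thinning to 2000 UMIs the Pearson values were 0.59, 0.32 and 0.24. Among the 52 cells with both subunits alone they were 0.43, 0.55 and 0.39. Over the kept cells of WTg the value for Atp4a and Esrrg was -0.00.

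Outside the pump-bearing cells, Esrrg was at similar levels in the libraries. The 986 EL1 cells with no pump subunit had 333 Esrrg UMIs, or 10.4 CPM, and the 871 such cells of WTg had 349, or 11.2 CPM. The log2 ratio of WTg to EL1 was 0.11 (-0.11 to 0.33). With each cell weighted equally it was -0.33, and the direction thus depended on the weighting. Atp4a, with the 52 EL1 cells with both subunits left out, had 60 UMIs left in EL1, or 1.70 CPM, against 1.24 CPM in WTg. That log2 ratio was -0.45 (-1.06 to 0.15). The cells left out were chosen by Atp4a itself, and no WTg cell had both subunits, so this ratio follows in part from that choice. With cluster 10 of EL1 left out instead, which was formed without the pump genes and Esrrg, the Atp4a log2 ratio was -0.78 (-1.37 to -0.21). Atp4b then had 49 UMIs left in EL1 and 0 in WTg. The 34 WTg cells with Atp4a had 9.57 CPM of Esrrg (5.76 to 14.9), no more than the WTg cells without it.

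Clustering of both libraries, with the 3 genes, Mettl3 and cell cycle genes left out, gave 19 clusters, and 1 of them held the pump. Cluster 10 comprised 75 cells of EL1 and 0 of WTg. It held 48 of the 52 cells with both subunits and 97.0% of the pump UMIs of EL1. Its levels were 475 CPM (451 to 499) for Atp4a, 749 CPM (720 to 779) for Atp4b and 274 CPM (257 to 293) for Esrrg. Atp4a was found in 68.0% of its cells, Atp4b in 86.7% and Esrrg in 92.0%. The cluster kept no cell type name, since 1 ductal and 1 parietal marker were raised in it, and its leading genes were Klk1, Ldhb, Klk1b5, Klk1b8 and Klk1b4. Esrrg was also present in cells of cluster 10 in which the pump was not found. In the 7 cells of cluster 10 with neither subunit it had 14 UMIs in 6 cells, or 97.3 CPM (53.2 to 163). In the 20 cells with 1 subunit, 17 of which had Atp4b, Esrrg was at 135 CPM (108 to 165), an interval that overlapped with that of the 7 cells. The 4 cells with both subunits outside cluster 10 had 1 to 17 Atp4a UMIs, 1 to 16 Atp4b UMIs and at most 1 Esrrg UMI, or 25.6 CPM (5.28 to 74.8).

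**Figure D2:**
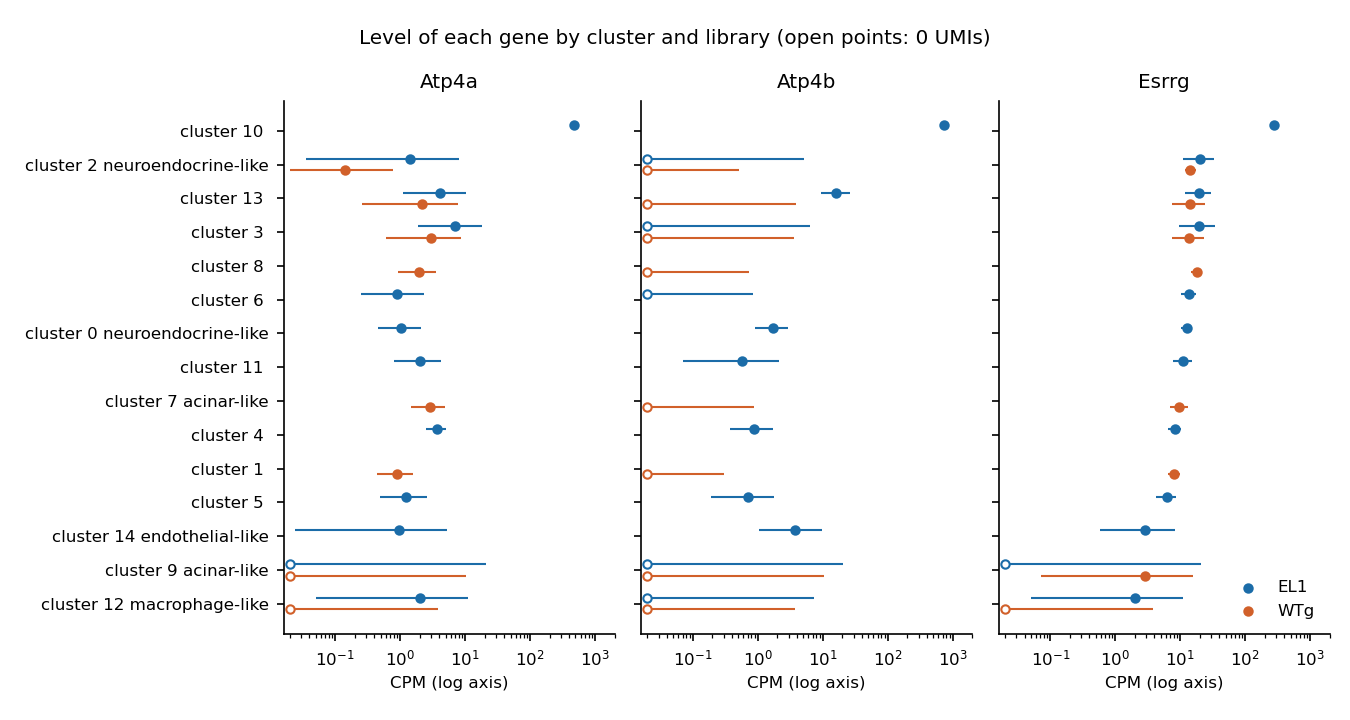
CPM of each gene (log axis) in clusters with at least 20 cells of a library, EL1 in blue and WTg in orange, with exact 95% Poisson intervals and open points at the left edge for 0 UMIs. Cluster 10, present in EL1, lies apart for the 3 genes at 475, 749 and 274 CPM, and Esrrg lies at or under 19.9 CPM in every other cluster shown.

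The pump subunits were low in the remaining EL1 clusters. Over the 1038 EL1 cells outside cluster 10, Atp4a was at 2.13 CPM (1.68 to 2.68) and Atp4b at 1.41 CPM (1.05 to 1.87). In the blood, immune and stromal clusters of EL1, which served as the background of free RNA, Atp4a and Atp4b were each at 3.54 CPM (1.30 to 7.70), in 5 and 3 of 100 cells at a median depth of 7827 UMIs. Of the 6 UMIs of each, 4 and 2 came from 18 erythroid-like cells. The other 4 Atp4b UMIs came from 1 endothelial-like cell. The levels over the cells outside cluster 10 lay within the background intervals. With 6 UMIs of each gene, these intervals are too wide to show whether such levels exceed the background. In cluster 13, led by Fos and Klf2, the Atp4b interval lay above it (16.3 CPM, 9.30 to 26.4), with its 16 UMIs in 1 of 34 cells. Of the other clusters, cluster 4, led by Thbs1 and S100g, had the most Atp4a UMIs (33 in 13 of 159 cells, 3.64 CPM, 2.50 to 5.11), within the background interval. Of these UMIs, 17 were in 1 cell. In WTg the 41 Atp4a UMIs lay mainly in cluster 7, an acinar-like cluster (12 UMIs, 2.84 CPM, 1.47 to 4.97), in cluster 8, led by histone and mitotic genes (10 UMIs, 1.97 CPM, 0.942 to 3.61), and in cluster 1, led by trypsinogen genes (11 UMIs, 0.896 CPM, 0.447 to 1.60). The 182 neuroendocrine-like cells of WTg had 1 Atp4a UMI, or 0.136 CPM (0.00344 to 0.758), below the interval of the 170 acinar-like cells at 2.62 CPM (1.36 to 4.58), although their median depth was higher (37044 against 22497 UMIs). In the blood, immune and stromal cells of WTg, Atp4a had 2 UMIs in 1 of 83 cells, or 1.16 CPM (0.140 to 4.19), and the WTg levels in these clusters overlapped with that interval.

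Esrrg was spread over the tumour cells of both libraries at a low level. Neuroendocrine-like cells had 13.2 CPM (10.8 to 15.9) over 272 cells of EL1 and 14.5 CPM (11.9 to 17.6) over 182 cells of WTg, with overlapping intervals. Different clusters hold this class, cluster 0 most of it in EL1 and cluster 2 in WTg. Esrrg was at 9.18 CPM (6.62 to 12.4) in the acinar-like cells of WTg. Among the WTg clusters, cluster 8 had the highest level among those with at least 20 cells, 17.9 CPM (14.4 to 22.0) in 51 of 90 cells, against 9.92 CPM (8.79 to 11.2) over the other 815 WTg cells. Cluster 11 of EL1, also led by histone genes, was at 11.0 CPM (7.81 to 15.1). In cluster 5 of EL1, led by S100g, it was at 6.18 CPM (4.30 to 8.59). The blood, immune and stromal cells gave a background of 2.95 CPM (0.957 to 6.88) for EL1 and 1.16 CPM (0.140 to 4.19) for WTg, so that the neuroendocrine-like cells of both libraries and cluster 8 lay above it, while cluster 5 overlapped with it. In 40 macrophage-like cells of WTg it had 0 UMIs.

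Acid secretion genes other than the pump were raised in part in the cells with both subunits. These cells are compared with the 986 EL1 cells with neither, as log2 ratios of CPM with exact conditional intervals, and since the cells were grouped by the pump itself this is a description. Of 13709 genes with at least 10 UMIs, 13.8% were at least 2-fold higher in the pump-bearing cells and 17.5% at least 2-fold lower. Of the 14 acid secretion genes that could be compared, 7 were higher and 4 lower. Clic6, a chloride channel family protein of secretory epithelia, was at 60.4 against 1.16 CPM (5.70, 5.18 to 6.26). Kcne2, the accessory subunit of the parietal potassium channel, was at 8.14 against 0.345 CPM (4.56, 3.44 to 5.76) but was found in 7 of the 52 cells. Kcnq1, the pore of that channel, was found in 43 of the 52 cells at 90.7 against 8.37 CPM (3.44, 3.18 to 3.70). The chloride transporter Slc26a9 (3.09), the chloride and bicarbonate exchanger Slc4a2 (1.85), the somatostatin receptor Sstr2 (1.60) and the membrane linker Ezr (1.45) were also higher. Chrm3, the muscarinic receptor through which acetylcholine stimulates acid secretion, was at 1.16 against 12.9 CPM (-3.47, -5.75 to -1.91). Rab25 was at -1.34 (-2.10 to -0.67), Car2, a carbonic anhydrase, had 1 UMI in these cells (-1.23, -6.58 to 1.36), and Aqp4, a water channel of parietal cells, had 0 UMIs against 3.23 CPM. Rab11a, a vesicle GTPase of the parietal cell, was at 64.7 against 79.0 CPM (-0.29). The sodium and proton exchanger Slc9a4 and the chloride channel Cftr were at 0 UMIs in both libraries.

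No gastric epithelium gene that could be compared was at least 2-fold higher in the pump-bearing cells. Of 20 gastric epithelium genes, 6 were at 0 UMIs in both libraries: Cblif (intrinsic factor), Chia1 (a chitinase), Lipf (gastric lipase), Gkn1 and Gkn2 (gastrokines) and Sox2 (a foregut transcription factor). Of the 5 that could be compared in EL1, 0 were higher in the pump-bearing cells and 3 were lower. Over all genes 13.8% were higher and 17.5% lower, and 5 genes are too few to tell 0 from such a share. Tff2, a trefoil peptide of gastric mucous cells and the most abundant of the list, was at 617 CPM in the pump-bearing cells and 766 CPM in cells with neither subunit, and over all cells it was higher in WTg (2118 against 755 CPM, log2 ratio 1.49). Hdc, which makes histamine, had 0 UMIs in the pump-bearing cells and 895 in cells with neither. Muc6 had 0 against 9 UMIs, which gives no fold. Anxa10 and Ghrl (ghrelin) had 1 UMI each in the pump-bearing cells, against 6.33 CPM of Anxa10 and 1.60 CPM of Ghrl in cells with neither. Cldn18, a claudin with a stomach isoform, was at 2.32 against 3.67 CPM, and over all cells it had 141 UMIs in EL1 and 1 in WTg. Between the libraries, 2 of 7 gastric genes with enough UMIs were higher in WTg (Tff2 and Ghrl) and 2 were lower (Cldn18 and Hdc), where 10.1% of all genes compared were higher and 6.9% lower. Of the 14 acid secretion genes, Ptger3, a prostaglandin receptor, was higher in WTg (20.7 CPM in EL1, 49.3 in WTg) and 2 were lower, Aqp4 (3.08 and 1.18 CPM) and Kcne2 (34 UMIs and 1).

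Of the sodium pump, whose subunits resemble those of the proton pump, 1 abundant subunit was past 2-fold. Atp1b1, which like Atp4b is a glycosylated beta subunit, was at 695 CPM in cells with both proton pump subunits and 157 CPM in cells with neither (2.14, 2.06 to 2.22). Atp1b3, another beta subunit, was at 79.0 against 82.7 CPM (-0.06). Of 11 genes of the family compared, 2 were higher and 2 lower, near the shares over all genes (13.8% higher and 17.5% lower). The higher ones were Atp1b1 and Fxyd2, the latter on 1 UMI, and the lower ones were the FXYD regulators Fxyd1 (158 against 326 CPM) and Fxyd5 (3.10 against 26.6 CPM). Fxyd3 and Fxyd6 lay at 0.51 and 0.16. Atp12a, the non-gastric proton pump, was at 0 UMIs in both libraries, as were Atp1a4 and Atp1b4. Between the libraries Fxyd7 was higher in WTg, with 25 UMIs in EL1 and 51 in WTg, and Fxyd2 was lower, with 11 and 4 UMIs.

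Some partners of estrogen-related receptors, and most of the metabolic genes linked to them, were higher in the pump-bearing cells. Of 10 receptor and partner genes, 4 were higher and 1 lower, where 13.8% of all genes were higher and 17.5% lower. Ppargc1a, the coactivator PGC-1 alpha, was found in 31 of the 52 cells at 39.9 against 8.15 CPM (2.29, 1.95 to 2.63). Ppargc1b (2.24, on 8 UMIs), the receptor Ppara (2.01) and Perm1 (4.04, on 4 UMIs) were also higher. Hnf4a, a nuclear receptor of endodermal epithelia, was at 7.36 against 66.1 CPM (-3.17, -3.90 to -2.52). The relative Esrra was at 10.8 against 8.40 CPM (0.37, -0.25 to 0.93), and Esrrb had 1 UMI in EL1. Nrip1, Nrf1, Gabpa and Nr0b2 lay at -0.42, -0.46, 0.63 and 0.64. Of the 16 mitochondrial and metabolic genes, 14 were at least 2-fold higher, with a median log2 ratio of 1.73 over the list beside -0.06 over all genes. Ldhb, the lactate dehydrogenase subunit of oxidative tissues, was at 473 against 2.23 CPM (7.73, 7.39 to 8.10) and was found in 51 of the 52 cells. Ckb, a creatine kinase, was at 360 against 33.1 CPM, Cpt1a, which brings fatty acids into mitochondria, at 184 against 24.5 CPM, and Slc25a4, which exchanges ADP and ATP, at 1351 against 194 CPM. The ATP synthase subunit Atp5b was at 2452 against 911 CPM, Cycs (cytochrome c) at 880 against 320 CPM, and Sdhb, at 313 against 159 CPM (0.98), and Tfam (0.79) were the 2 genes short of 2-fold. Others past 2-fold were Ckmt1 (2.07), Idh3a (2.01), Pdk4 (1.88), Cpt1b (1.82), Ndufs1 (1.63), Cs (1.52) and Acadm (1.39), most of them enzymes of the citric acid cycle, fatty acid oxidation or the respiratory chain. The mitochondrially encoded share of UMIs moved with these genes (median 8.50% against 4.02%), and its part in the result was not tested. Between the libraries 2 of the 16 were lower in WTg, Ldhb (40.1 and 2.94 CPM) and Pdk4 (2.85 and 0.576 CPM), and 0 higher. Of the partners, Nr0b2, a corepressor, was lower (18.7 and 7.91 CPM).

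**Figure D3:**
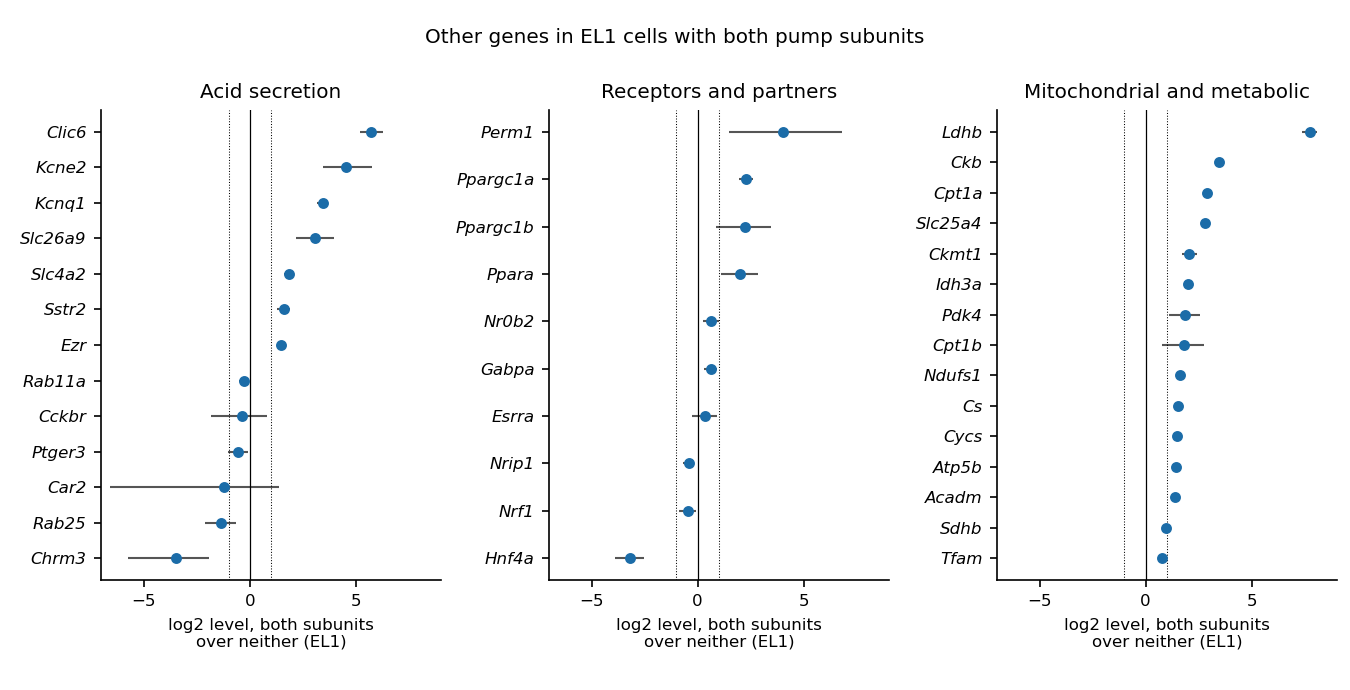
Log2 ratio of the level in the 52 EL1 cells with both pump subunits over the 986 with neither (x axis), with exact conditional 95% intervals. Most genes of 3 lists with at least 10 UMIs in EL1 are drawn (y axis). Aqp4, with 0 UMIs in the cells with both subunits, gives a bound and is not drawn. Dotted lines mark 2-fold. Points to the right include Kcnq1 at 3.44, Ppargc1a at 2.29 and Ldhb at 7.73, and points to the left include Chrm3 at -3.47 and Hnf4a at -3.17.

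Neuroendocrine, macrophage and neutrophil markers were mostly or all lower in the pump-bearing cells, and acinar, ductal and parietal markers went both ways. Over all genes, 13.8% were at least 2-fold higher and 17.5% at least 2-fold lower. The 986 cells with neither subunit include most of the immune, stromal and neuroendocrine-like cells of EL1. Lower values of the markers of these classes therefore follow in part from the make-up of that group. The neutrophil marker S100a8, for example, was found in 17 of the 986 cells, and the fibroblast marker Dcn in 5. Of 9 neuroendocrine markers compared, 9 were lower, and the 10 of the list summed to 255 CPM against 4696 CPM in cells with neither subunit. Acinar markers summed to 46458 against 89283 CPM, with 5 of 10 lower and Ctrl and Sycn higher. Of 7 ductal markers, Krt7 and Spp1 were higher and 5 were lower. Of the 7 parietal markers other than the pump, 3 could be compared. Kcne2 and Clic6 were higher, and Aqp4, at 0 UMIs in the pump-bearing cells, was lower. Slc9a4 was at 0 in both libraries, and the remaining parietal markers had 1 to 3 UMIs in EL1. The 8 macrophage markers summed to 14.7 against 471 CPM, with 8 of 8 lower. The 5 neutrophil markers summed to 0.387 against 89.9 CPM, with 4 lower and 0 higher. Fibroblast markers summed to 0 against 29.9 CPM, and of the 3 compared 1 was lower and 0 higher. Erythroid markers summed to 86.4 against 84.2 CPM with 0 of 5 past 2-fold, and endothelial markers to 22.9 against 21.7 CPM with 1 of 3 higher and 0 lower. Scrublet called 4 doublets in EL1, 1 of them a cell with both subunits.

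The genes most like the members across EL1 cells were largely shared between them. Among 11524 genes found in at least 5% of the cells, those with the highest Pearson correlation with Atp4b were Ldhb (0.86), Klk1b5 (0.80), Klk1b8 (0.78), Atp4a (0.75) and Klk1 (0.74). For Esrrg they were Atp4b (0.70), Ldhb (0.67), Klk1b5 (0.63), Klk1 (0.62) and Klk1b8 (0.62). For Atp4a they were Atp4b (0.75), Fa2h (0.67), Klk1b5 (0.66), Ldhb (0.65) and Klk1b8 (0.64). Klk1 and the Klk1b genes encode tissue kallikreins, secreted serine proteases, and their sequences are alike enough that counts may be split between copies. Fa2h encodes a fatty acid hydroxylase. These values describe cells of 1 library that differ in depth. With cells thinned to 2000 UMIs and the same genes compared, an alternative chosen after seeing the data, 3 of the 5 genes for Atp4a and 4 of 5 each for Atp4b and Esrrg were again among the top 5. Atp4b was then highest for both Atp4a (0.59) and Esrrg (0.32). In WTg the highest correlation with Esrrg was 0.31 (Ska3, on 61 UMIs), over 905 cells. Of the 5 highest genes there, 0 were among the top 5 by Spearman correlation. After thinning with the same genes compared, 0 of the 5 were as well.

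Genes were also ranked by the ratio of their level in the 52 cells to that in cells with neither subunit, after adding 10 CPM to each. Among genes with at least 200 UMIs in EL1 the first 10 were Klk1, Klk1b5, Ldhb, Klk1b4, Tnni3, Klk1b8, Ctrl, Kng2, Klk1b24 and Ephx2. Klk1 was found in 52 of the 52 cells and was at 12699 CPM there against 104 CPM in cells with neither subunit. Tnni3, a cardiac troponin, was at 855 against 18.5 CPM, and Ctrl, a chymotrypsin-like protease, came from 10 of the 52 cells. The same genes occurred in WTg without the pump. In WTg, Klk1 had 19936 UMIs in 373 cells and Tnni3 5296 UMIs in 588 cells, while Ldhb had 97 UMIs in 64 cells. At least 5 of the 10 genes were found in 77 cells of EL1 and 66 cells of WTg. At least 7 of the 10 were found in 67 cells of EL1 and 7 of WTg. The 77 EL1 cells, with a median of 35274 UMIs, included 50 of the cells with both subunits. They had 455 CPM of Atp4a, 709 CPM of Atp4b and 255 CPM of Esrrg. The 10 genes were picked from cells with the pump, so the high pump levels in the 77 cells follow from that choice. Whether the EL1 and WTg cells found this way are of the same kind was not tested. The 66 WTg cells, with a median of 68212 UMIs, had 2.11 CPM of Atp4a (1.01 to 3.87), 0 UMIs of Atp4b and 9.89 CPM of Esrrg (7.27 to 13.2), against 11.1 CPM of Esrrg over all WTg cells. Klk1 was at 13817 CPM in the 77 EL1 cells and 2183 CPM in the 66 WTg cells, and Ldhb at 412 and 3.16 CPM.

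**Figure D4:**
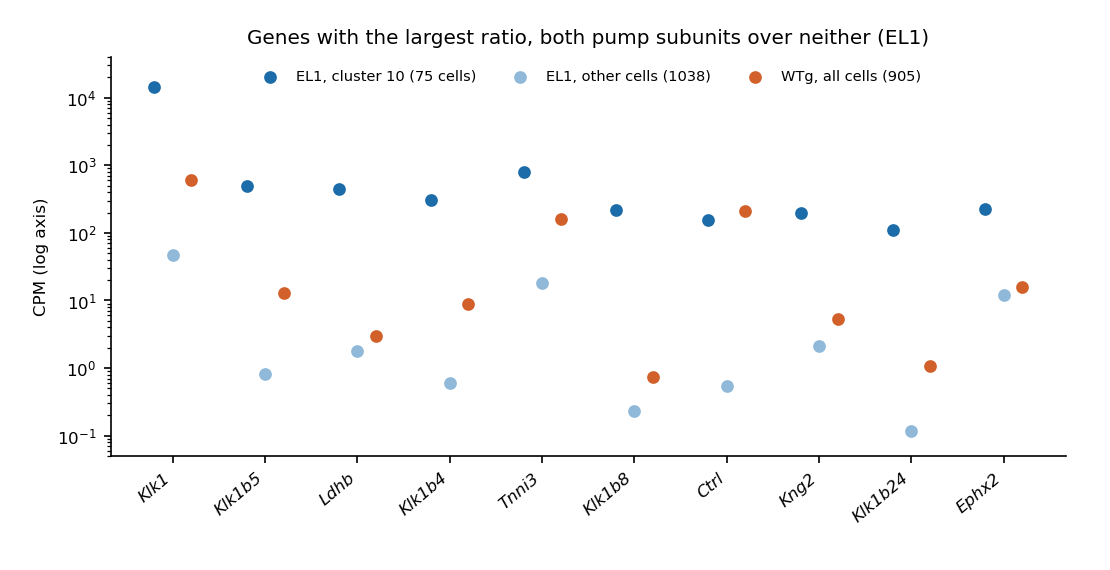
CPM (log axis) of the 10 genes with the largest ratio of EL1 cells with both pump subunits over cells with neither (10 CPM added to each), for the 75 EL1 cells of cluster 10, the other 1038 EL1 cells and the 905 WTg cells. The WTg points lie above those of the other EL1 cells, as for Klk1 at 604 against 46.7 CPM, and below those of cluster 10 except for Ctrl. Most of these genes lead cluster 10, so taking that cluster out lowers the other EL1 cells. Over all EL1 cells Klk1 was at 1300 CPM, above WTg.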

How the data were processed

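The authors deposited UMI counts per gene and barcode, made from 10x Chromium 3′ libraries with Cell Ranger 6.0.2, as the matrix header gives it. GRCm38, R 4.1 and Seurat 4.0.5 stand in the submitters' processing notes. Whether intronic reads were counted is not given in the sources used here. The sparse matrices were used, and the deposited dense tables of counts served as an alternative. The members and gene lists were chosen with earlier results of these data known. Genes named from a list were its 5 most abundant, those past 2-fold with at least 50 UMIs over both libraries, and defining stomach genes at 0. Those named with fewer UMIs (Car2, Fxyd2, Kcne2, Muc6, Perm1 and others) or to complete a family were chosen after their values were seen. Clustering (scanpy 1.11.5, leidenalg 0.10.2) used 2000 variable genes, 30 principal components, 15 neighbours and resolution 1, and clusters were named from marker lists. A ratio against 0 used 3 counts and is a bound. TMM scaling came from edgeR 4.0.16. Scripts were tested on simulated counts. The alternatives were other cell filters, depths, scalings and clusterings. Shared barcodes, cells outside cluster 10 and likeness over the same genes after thinning were added after seeing the data. Some genes of the lists are not reported here.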

Additional observations from a re-analysis of the deposited data

Results flagged for a closer look

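The removed barcodes with over 20% mitochondrial UMIs, which entered no comparison above, held UMIs of the members above the limit that 3 counts set. In the 393 such barcodes of EL1, Atp4a had 14 UMIs, Atp4b 40 UMIs (37.3 CPM, 26.7 to 50.9) in 9 barcodes, and Esrrg 17 UMIs (15.9 CPM, 9.25 to 25.4). In the 440 such barcodes of WTg, Esrrg had 11 UMIs (6.58 CPM, 3.29 to 11.8), Atp4a had 2 UMIs and Atp4b had 0. Each gene had more UMIs in EL1 than in WTg here, as in the kept cells, but the Esrrg intervals overlapped. These barcodes come from the same libraries as the kept cells and are no independent repeat.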

How the results depend on the processing

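With 1 library per group, leaving out a replicate could not be done. A paired analysis was not possible for the same reason. Of 110 values under alternatives, 84 stayed within the counting interval or within 1.5 times the count, 25 moved and 1 changed sign. The log2 ratio of Esrrg in cells with no pump subunit (0.11) was -0.33 with each cell weighted equally. Over all deposited barcodes the Atp4b log2 ratio was -10.15 (-13.19 to -8.29), on 2 WTg UMIs. TMM scaling moved every log2 ratio of WTg to EL1 by 0.13, and the median of all genes from -0.14 to -0.00. Thinning set the shares of cells with a UMI. At 1000 UMIs they were 2.88% for Atp4b in EL1 and 2.61% and 1.22% for Esrrg in EL1 and WTg. At 5000 UMIs they were 4.21% for Atp4a in EL1 and 10.3% and 5.48% for Esrrg. Without thinning they were 8.63%, 7.46% and 29.6% in EL1 and 3.76% (Atp4a) and 27.4% (Esrrg) in WTg. Thinned to 2000 UMIs, 20 EL1 cells had both subunits and 35.0% of them Esrrg. With the members kept in clustering, 98.0% of the pump UMIs lay in the leading cluster. With no minimum of UMIs, 2 acid secretion and 5 gastric genes were higher in WTg. With at least 50 UMIs, 1 acid secretion gene and 0 sodium pump genes were lower in WTg, and 1 sodium pump gene was higher. Of the 5 genes most like Atp4b, 3 were among the top 5 by Spearman correlation. With thinned cells, 0, 1 and 1 of the 5 for Atp4a, Atp4b and Esrrg still passed the 5% minimum and could be ranked, and all of these were among the top 5. With the same genes compared as before thinning, 3, 4 and 4 were. Leaving out the shared barcodes, or the doublets, kept the levels and the counts of cells with both subunits within their intervals. Depth limits what 0 UMIs of Atp4b in WTg can show to 0.0909 CPM.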

Other observations

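Both WTg barcodes with an Atp4b UMI were among the 15 barcodes found in both libraries. They had 1 Atp4b UMI each in WTg, at totals of 500 and 543 UMIs, and in EL1 the same barcodes had 138 and 115 Atp4b UMIs at totals of 127067 and 154248. Another shared barcode had 1 Atp4a UMI in WTg and 49 in EL1. All 3 were removed from WTg by the cell filter. Of the 34 kept WTg cells with Atp4a, 0 had a barcode that was also in EL1. The source of the shared barcodes was not tested.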
